A study of Caenorhabditis elegans with 6 samples.

Results

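The DBL-1 pathway is the TGF-beta signalling branch that sets body size in Caenorhabditis elegans. Its transcripts were compared between RNA purified out of the PVD and OLL sensory neurons by mRNA tagging and RNA of whole larvae. The genes were taken by name and were dbl-1, sma-2, sma-3, sma-4, sma-6, sma-9, sma-10, daf-4, lon-1 and lon-2. Every probe set that the array annotation assigned to 1 of these genes alone was taken. All 10 genes were found, with 17 probe sets, among the 17118 genes and 22548 probe sets tested. Of these, 7 genes had 2 probe sets each, and sma-3, sma-4 and lon-1 had 1.

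DBL-1 is a secreted ligand of the BMP class that is made largely by neurons and acts on other tissues. It binds a type I receptor, SMA-6, and a type II receptor, DAF-4, at the cell surface. The receptors phosphorylate the Smads SMA-2 and SMA-3, which enter the nucleus with the co-Smad SMA-4 and work there with the zinc finger protein SMA-9. Loss of any of these signalling parts gives small worms, and excess signalling gives long ones. For body length the receiving tissue is mainly the hypodermis, the epithelium that secretes the cuticle, and the same pathway patterns the sensory rays of the male tail.

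There were 3 arrays per group, all from L3/L4 larvae grown at 25 °C on E. coli. In the PVD and OLL group, poly(A) RNA was recovered through FLAG-tagged PAB-1, the poly(A) binding protein, expressed in these neurons from the ser-2prom3B promoter. PVD is a highly branched nociceptor of the body wall and OLL a sensory neuron of the head. The reference group was total RNA of whole animals extracted with Trizol. Tissue, the pull-down through tagged PAB-1 and type of RNA thus changed together and cannot be told apart. The amplification kit (NuGEN) was the same for all arrays. No genotype, strain or age beyond the larval stage is given for either group in the sources used here. The PVD and OLL arrays are called biological replicates and the reference arrays carry a number only, so the spread that p-values rest on may be partly technical.

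Array medians lay between 3.59 and 3.89 on the log2 scale. PVD and OLL replicate 3 and whole animal replicate 3 correlated less with their own group than the other replicates did (0.954 and 0.961 against 0.988, and 0.938 and 0.940 against 0.973, across probe sets). Each array's no-target level, taken from controls for bacterial and yeast RNA that the samples lack, was 2.28 to 2.44 in the PVD and OLL group and 2.95 to 3.43 in the whole animal group. Of 12 markers of the targeted neurons 8 were higher in the pulled-down RNA and 0 lower, against 8.1% and 4.66% of all genes. Among the 8, degt-1 lay below the no-target level on all whole animal arrays. That level was higher there, so no fold is given for degt-1. The markers ser-2, eat-4, F49H12.4 and mec-10 did not pass the test (adjusted p = 0.202, 0.988, 0.945 and 0.0587).

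Of the 10 pathway genes, 5 were higher in the PVD and OLL samples, each gene being read from its brighter probe set. They passed at an adjusted p under 0.05 over all probe sets (limma). These were the Smad genes sma-3 and sma-4, the nuclear cofactor gene sma-9, the receptor regulator gene sma-10 and the type II receptor gene daf-4. None of the 10 was lower, by the test or at an unadjusted p under 0.05, and 0 was also the count of lower calls in each of the 18 alternatives. Over all genes, 8.1% were called higher and 4.66% lower. The median log2 difference of the 10 genes was 0.96, against -0.07 over all genes, and the values ran from 0.53 to 1.72. All genes include many dim ones. Without the dimmest 25% of probe sets, 13.2% of the rest were called higher and their median was 0.15. In that run 5 of the 10 genes were again called higher. In bulk RNA, a higher share of cells of a type and more transcript per cell cannot be told apart.

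Arrays of both groups did not overlap for 7 of the 10 genes, each time with the PVD and OLL arrays higher, which was the case for 18.4% of all genes. Read array by array against the whole animal mean, all 10 genes were higher on PVD and OLL replicates 1 and 2, with medians of 1.18 and 1.31, and 9 on replicate 3, all but sma-6, with a median of 0.94. Over all genes, between 43.4% and 46.7% were higher on these arrays. Counted by probe set, 7 of 17 were called higher, against 9.31% of all probe sets, and 0 lower, against 4.28%.

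**Figure D1:**
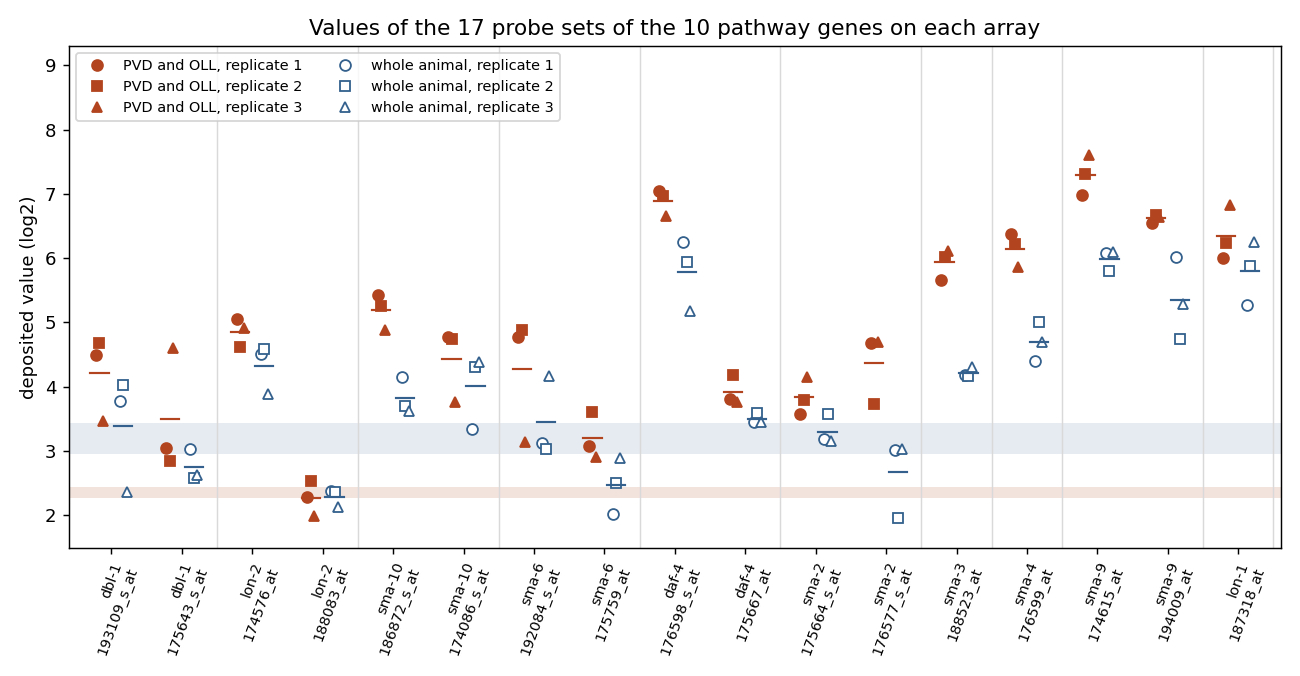
Deposited log2 values of the 17 probe sets of the 10 genes, 1 symbol per array (circle, square and triangle for replicates 1, 2 and 3), with PVD and OLL filled and whole animal open, and a line at each group mean. The bands show the range of the no-target level over the 3 PVD and OLL arrays (2.28 to 2.44) and the 3 whole animal arrays (2.95 to 3.43). The Smad genes sma-3 and sma-4 and both sma-9 probe sets separate the groups, while the brighter probe sets of dbl-1 and sma-6 overlap.

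On the brighter probe sets, the Smad genes sma-3 and sma-4 had the largest differences. sma-3, which encodes a receptor-regulated Smad, read 5.66, 6.02 and 6.12 in the PVD and OLL group and 4.19, 4.16 and 4.30 in the whole animal. All PVD and OLL arrays were above all whole animal arrays by more than either group's own range. The mean difference of sma-3 was 1.72 ± 0.20 on the log2 scale (moderated SE, n = 3 arrays in each group), or 3.28-fold, with an adjusted p of 0.00518. It was the only one of the 10 genes whose call held in all 18 alternatives, the 6 runs with 1 array left out included, with values from 1.34 to 2.96.

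sma-4, the co-Smad gene, read 6.37, 6.21 and 5.86 in the PVD and OLL group and 4.40, 5.01 and 4.70 in the whole animal. The groups were again apart, with the lowest PVD and OLL array above the highest whole animal array. sma-4 rose by 1.44 ± 0.24 (adjusted p = 0.0113), a 2.72-fold difference, and failed to pass in 1 of 18 alternatives, the run without PVD and OLL replicate 2 (adjusted p = 0.0574).

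For sma-2, the partner of sma-3 among the receptor-regulated Smads, the 2 probe sets gave different sizes. The probe set 175664_s_at read 3.58, 3.80 and 4.15 against 3.18, 3.57 and 3.16, a difference of 0.54 ± 0.23 that did not pass (adjusted p = 0.153, 95% interval 0.00 to 1.08). The probe set 176577_s_at read 4.68, 3.73 and 4.69 against 3.01, 1.95 and 3.04, and rose by 1.69 ± 0.39 (adjusted p = 0.03). Neither overlapped between groups, and on both the PVD and OLL arrays were higher. On the second, 1 whole animal array exceeded the no-target level. With values raised to that level, the second differed by 1.18 ± 0.29 (adjusted p = 0.0155). Omitting single arrays ended its call in 4 of 6 cases (adjusted p up to 0.0954). With the mean of both probe sets, sma-2 differed by 1.12 ± 0.23 and was called (adjusted p = 0.0214).

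sma-9 encodes a large zinc finger protein related to fly Schnurri that acts with the Smads. Its probe set 174615_at read 6.99, 7.31 and 7.60 in the PVD and OLL group and 6.08, 5.80 and 6.09 in the whole animal. The second, 194009_at, read 6.55, 6.67 and 6.64 against 6.01, 4.75 and 5.28. On both, every PVD and OLL array lay above every whole animal array. The differences were 1.31 ± 0.23 (adjusted p = 0.0126) and 1.27 ± 0.32 (adjusted p = 0.0388), so sma-9 was the only gene of the 10 with both probe sets called. The first lost its call without PVD and OLL replicate 2 (adjusted p = 0.0606), and the second when any of 5 of the 6 arrays was omitted (up to 0.126). The second also failed to pass with median centring, repeated quantile normalization, cyclic loess, the replicate number as a block and without replicate 3 of both groups (adjusted p up to 0.0929).

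At the receptor level the type II gene passed the test and the type I gene did not, and the difference between them was not tested. daf-4, the type II receptor gene that serves this branch and the dauer branch, read 7.04, 6.97 and 6.65 on probe set 176598_s_at, against 6.25, 5.94 and 5.18 in the whole animal. The groups did not overlap. daf-4 rose by 1.10 ± 0.30, a 2.14-fold difference that lay at the threshold (adjusted p = 0.0499). Its call was lost in 10 of 17 alternatives, with 5 of the 6 left-out arrays and under each of median centring, repeated quantile normalization and cyclic loess (adjusted p up to 0.155 over all of them). The other daf-4 probe set, 175667_at, read 3.81, 4.18 and 3.77 against 3.46, 3.59 and 3.45, with no overlap, and did not pass (0.42 ± 0.20, adjusted p = 0.186).

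sma-6, the type I receptor gene of this branch, was split between replicates. On probe set 192084_s_at, PVD and OLL replicates 1 and 2 read 4.77 and 4.89 and replicate 3 read 3.14, while whole animal replicates 1 and 2 read 3.13 and 3.04 and replicate 3 read 4.18. Replicates 1 and 2 of the groups stood apart, and the replicate 3 arrays were the other way round. The difference was 0.82 ± 0.52 (adjusted p = 0.302, 95% interval -0.38 to 2.02). With replicate 3 of both groups left out it was 1.75 ± 0.19 (adjusted p = 0.00516). The dimmer probe set, 175759_at, read 3.08, 3.60 and 2.92 against 2.02, 2.50 and 2.90, with all 3 whole animal arrays below the no-target level. There the bound from the group means was at least 1.03-fold, and sma-6 did not pass (adjusted p = 0.135). With values raised to the no-target level, the difference was 0.04 ± 0.25 (adjusted p = 0.901), so no direction can be read from this probe set.

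**Figure D2:**
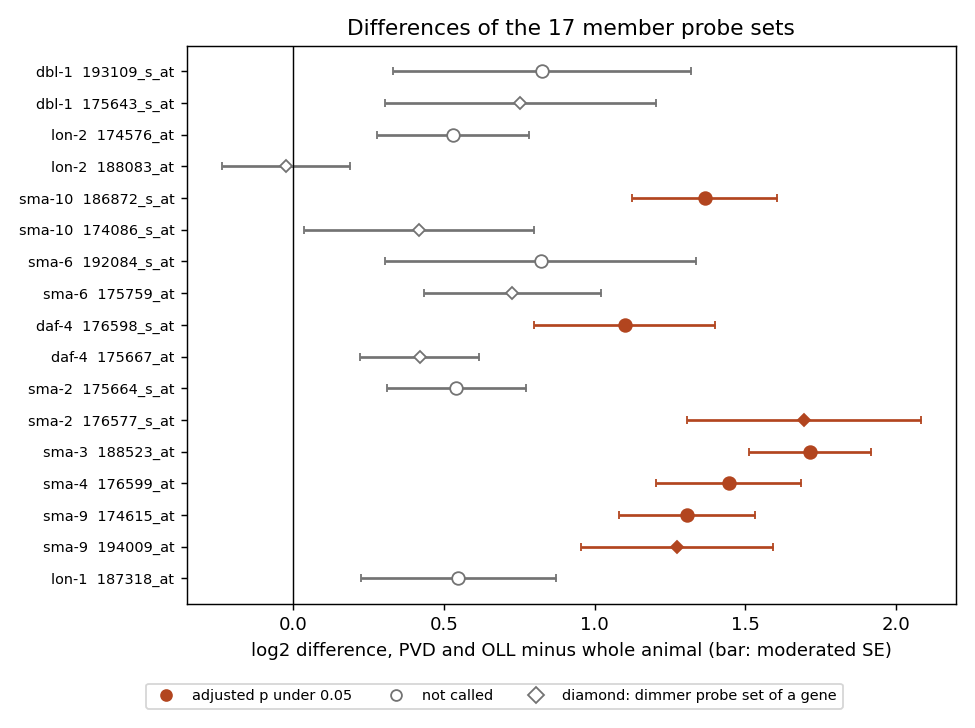
Log2 differences, PVD and OLL minus whole animal, of the 17 probe sets with limma's moderated standard errors (3 arrays per group). Circles are the brighter and diamonds the dimmer probe set of a gene, and filled symbols passed the test. The 7 called probe sets lie between 1.10 and 1.72. The dimmer probe sets of dbl-1, sma-6 and lon-2 were below the no-target level on all whole animal arrays, so their points are not measured differences.

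The ligand gene itself was not called. dbl-1 on probe set 193109_s_at read 4.50, 4.68 and 3.46 in the PVD and OLL group and 3.78, 4.02 and 2.36 in the whole animal. Replicate 3 was the lowest in each group and the groups overlapped. The difference was 0.83 ± 0.50 (adjusted p = 0.282, 95% interval -0.33 to 1.98). The probe set 175643_s_at read 3.05, 2.85 and 4.60 against 3.03, 2.58 and 2.62, with replicate 3 of PVD and OLL now the highest array and all whole animal arrays below the no-target level. There the bound from the group means was at least 1.27-fold, but it leaned on replicate 3 of PVD and OLL, and dbl-1 did not pass (adjusted p = 0.278). With values raised to the no-target level, the difference was 0.34 ± 0.41 (adjusted p = 0.521). The interval of the first probe set includes no difference and a difference of over 3-fold.

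The 5 genes whose values over the 6 arrays lay nearest to dbl-1, each centred on its own mean, were btbz-2, Y39B6A.43, F40F9.10, sor-1 and cest-31. Their root mean square distances from dbl-1 were between 0.168 and 0.196 on the log2 scale, and sor-1 differed between the groups by 0.78 (adjusted p = 0.278). In each of these genes replicate 3 was the lowest array of its group, as in dbl-1 on its brighter probe set. Choosing genes by distance to dbl-1 brings that pattern with it, so it is not a separate finding.

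The extracellular and membrane regulators differed in size. sma-10 encodes a transmembrane protein with leucine-rich and immunoglobulin repeats that binds the receptors and promotes signalling. On probe set 186872_s_at it read 5.43, 5.26 and 4.88 against 4.16, 3.70 and 3.62, without overlap, and rose by 1.37 ± 0.24 (adjusted p = 0.0134), a 2.58-fold difference. It no longer passed when PVD and OLL replicate 1 or 2 was omitted (adjusted p up to 0.0652) or when both probe sets were averaged (a log2 difference of 0.89, adjusted p = 0.0525). The other sma-10 probe set, 174086_s_at, read 4.77, 4.75 and 3.77 against 3.35, 4.30 and 4.38. There the groups overlapped and the difference of 0.42 ± 0.38 did not pass (adjusted p = 0.47).

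lon-2 encodes a glypican that binds DBL-1 and holds signalling down. Its brighter probe set read 5.05, 4.61 and 4.91 against 4.51, 4.59 and 3.89. The groups did not overlap, but by a narrow margin between PVD and OLL replicate 2 and whole animal replicate 2, and lon-2 did not pass (0.53 ± 0.25, adjusted p = 0.19, 95% interval -0.06 to 1.12). The dimmer probe set exceeded the no-target level on 1 of the 6 arrays and gives no measure of a difference (-0.02 ± 0.21). lon-1, a secreted protein of the CRISP family whose gene is repressed by the pathway and which limits body length, read 5.996, 6.23 and 6.83 against 5.27, 5.88 and 6.26. The groups overlapped and the difference was 0.55 ± 0.32 (adjusted p = 0.276, 95% interval -0.21 to 1.30).

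The agreement of the 7 genes with 2 probe sets was tested within arrays, by an exact two-sided permutation of the group labels on the difference between probe sets, where 0.1 is the smallest p that 3 against 3 arrays can give. A p of 0.1 was reached for sma-2, whose dimmer probe set showed the larger difference by 1.15 on the log2 scale, and for daf-4, whose brighter one did by 0.68 (adjusted p = 0.35 over the 7 genes for each). The dimmer sma-2 probe set exceeded the no-target level on 1 whole animal array. With values raised to that level its difference was 1.18 in place of 1.69. For sma-10 the differences were 0.95 apart (exact p = 0.3, adjusted p = 0.525). In sma-9 they were 0.03 apart (exact p = 1). The dimmer probe sets of dbl-1, sma-6 and lon-2 lay below the no-target level on all whole animal arrays, so no agreement can be read for these genes.

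Leaving out single arrays changed how many genes passed. The count of genes called higher was 1 without PVD and OLL replicate 2, with sma-3 remaining, and 3 without PVD and OLL replicate 1, with sma-3, sma-4 and sma-9 remaining. It was 4 or 5 in the other runs of this kind. Of all probe sets, 2.56% were called higher without PVD and OLL replicate 2 and 4.0% without replicate 1. With replicate 3 of both groups left out, 6 genes passed, against 14.6% of all probe sets. The brighter probe sets of the 10 genes kept a positive difference in each of the alternatives run on them. Centring arrays on the bioB and bioC spike controls, which moved the median difference of all probe sets from -0.03 to 1.22, put all 10 genes higher, so the directions here are relative to the deposited scale.

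**Figure D3:**
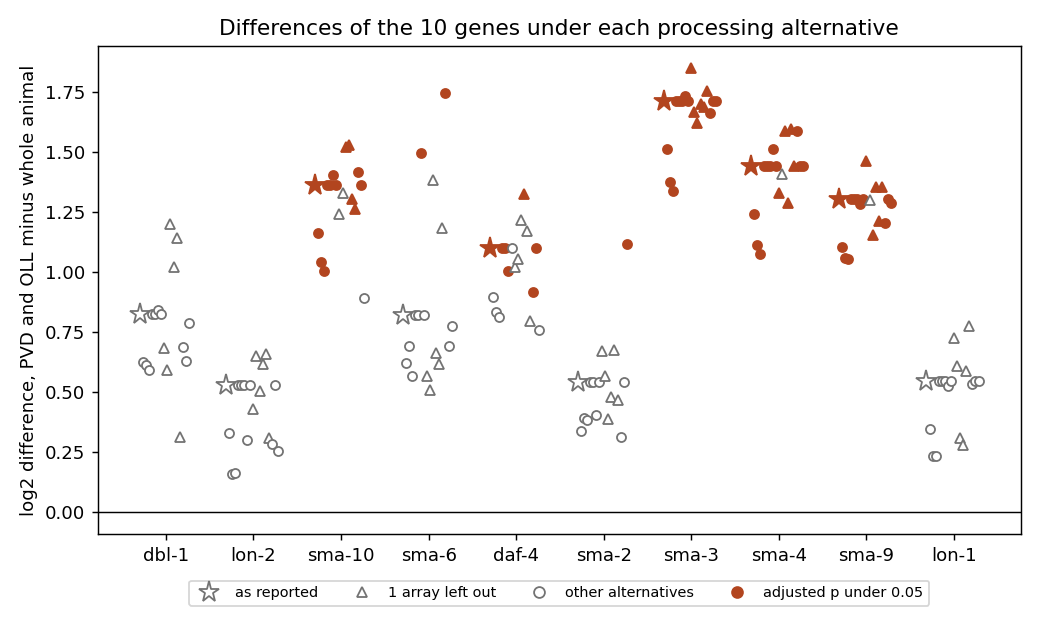
Log2 difference of each of the 10 genes on its brighter probe set as reported (star), with 1 array left out (triangles) and under the other alternatives (circles), filled where the adjusted p was under 0.05. Centring on the spike controls is not drawn. sma-3 is filled throughout, sma-4 and sma-9 lose 1 point each, and no point of any gene falls below 0.

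Genes that act around the pathway were read from their brighter probe sets as well. Of 10 measured modulators of ligand, receptor or Smad activity, 3 were higher and 0 lower, with a median of 0.71. Over all genes, the shares were 8.1% and 4.66%. mab-31, which acts with the pathway in male ray development, read 5.62, 6.05 and 6.04 against 5.02, 4.69 and 3.47. sup-17, a metalloprotease of the ADAM10 class, read 4.78, 4.91 and 4.90 against 3.94, 4.33 and 3.46. The arrays of the groups did not overlap in either gene. mab-31 rose by 1.51 ± 0.40 (adjusted p = 0.0452) and sup-17 by 0.95 ± 0.25 (adjusted p = 0.0474). Omitting single arrays ended their calls in 4 and 5 of 6 cases (adjusted p up to 0.143 and 0.15). Neither passed with median centring, repeated quantile normalization, cyclic loess or the replicate number as a block (up to 0.139 and 0.227), and sup-17 also failed with an intensity trend (0.0671) and without replicate 3 of both groups (0.0625). The sup-17 difference was 0.60 after cyclic loess. The other probe set of mab-31 rose by 1.70 (adjusted p = 0.0102). Of the other sup-17 probe sets, 1 lay below the no-target level on all whole animal arrays, with a bound of at least 1.64-fold (adjusted p = 0.013). The remaining one differed by 1.27 (adjusted p = 0.0521).

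The remaining called modulator was rnt-1, the Runx factor gene, which lay below the no-target level on all whole animal arrays. It read 2.90, 3.11 and 2.96 against 2.27, 2.27 and 2.35 (adjusted p = 0.042), and no fold is given because the level itself was higher there. With values raised to that level the rnt-1 difference was -0.16. The call was lost with 5 of the 6 left-out arrays. drag-1, a member of the repulsive guidance molecule family that promotes signalling, read 3.17, 3.05 and 2.86 against 3.53, 4.07 and 3.04 and did not pass (-0.52 ± 0.28, adjusted p = 0.24). unc-40, the netrin receptor and neogenin homologue, whose protein binds DRAG-1, differed by 0.32 ± 0.22 on its brightest probe set (adjusted p = 0.338), while its probe set 191730_s_at rose by 1.47 ± 0.28 (adjusted p = 0.0172). crm-1 and tsp-21 had no probe set of their own.

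Among 7 genes of receptor trafficking, 1 was higher and 0 lower, with a median of 0.72. The shares over all genes were 8.1% and 4.66%, so this count alone does not set the list apart. dpy-23, the medium chain of the AP-2 clathrin adaptor, read 5.76, 5.85 and 5.75 against 3.98, 4.39 and 4.44. These groups lay more than 1 log2 unit apart. dpy-23 rose by 1.52 ± 0.20 (adjusted p = 0.00646), a call held in all 18 alternatives, and its other probe set rose by 1.09 (adjusted p = 0.0176). The retromer gene vps-35 differed by 0.72 on its brighter probe set (adjusted p = 0.0854) and rose by 1.08 on the other (adjusted p = 0.0173).

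A further 7 measured genes are known as targets of the pathway or as acting downstream of it. Against 8.1% and 4.66% of all genes, 2 were higher and 0 lower, with a median of 0.91. Both are cuticle collagens of the hypodermis. lon-3, whose dose affects body length, read 9.55, 9.71 and 9.16 against 8.57, 8.31 and 7.91 and rose by 1.21 ± 0.25 (adjusted p = 0.0217). rol-6 read 8.74, 8.67 and 8.40 against 7.67, 7.89 and 6.81 and rose by 1.15 ± 0.30 (adjusted p = 0.0456). These calls ended in 3 and 5 of 6 cases when single arrays were omitted (adjusted p up to 0.094 and 0.143). Median centring, repeated quantile normalization, cyclic loess and the replicate block ended the rol-6 call (up to 0.0719) and left that of lon-3. The collagen genes col-41, col-141 and col-142 differed by 0.91, -0.19 and 0.37 (adjusted p = 0.103, 0.698 and 0.405).

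The second TGF-beta branch controls entry into the dauer larva and uses daf-4 with other partners. With the ligands outside both branches included, 2 of 8 genes were higher and 0 lower, against 8.1% and 4.66% of all genes. The median was 0.83. The type I receptor gene of this branch, daf-1, read 5.14, 5.14 and 5.37 against 3.80, 4.32 and 4.09. It rose by 1.15 ± 0.21 (adjusted p = 0.0155). daf-5, which encodes a Ski-like nuclear factor, rose by 1.30 ± 0.25 (adjusted p = 0.0175), and its other probe sets by 2.03 and 1.62. All PVD and OLL arrays were above all whole animal arrays on each daf-5 probe set and on the brighter daf-1 one. The other daf-1 probe set overlapped between groups and did not pass (0.97 ± 0.34, adjusted p = 0.102). It exceeded the no-target level on 1 whole animal array. The daf-1 call ended when PVD and OLL replicate 1 or 2 was omitted (adjusted p up to 0.0649), and the daf-5 call in 3 of 6 such cases (up to 0.0798). Repeated quantile normalization and cyclic loess also ended both.

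The other ligands were not called, like dbl-1. daf-7, the dauer branch ligand, read 5.59, 4.73 and 4.45 against 4.18, 3.89 and 4.05 and did not overlap (0.88 ± 0.31, adjusted p = 0.0969). tig-2 differed by 0.35 ± 0.37 (adjusted p = 0.534) and unc-129, a ligand known for axon guidance, by 0.30 ± 0.28 (adjusted p = 0.468). tig-3 had no probe set of its own.

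Markers of other tissues moved as well, and each count stands beside 8.1% of all genes called higher and 4.66% lower. Of 13 hypodermal markers, 5 were higher (elt-1, lin-26, nhr-23, wrt-2 and wrt-10) and 1 lower (col-19, a collagen of the adult cuticle), with a median of 1.001. col-19 read 3.54, 3.24 and 3.63 in the PVD and OLL group and 5.94, 5.27 and 7.96 in the whole animal. The signal of the hypodermal markers was summed on the linear scale. It was 7927 to 10450 in the PVD and OLL group and 9548 to 11360 in the whole animal group, so the sums overlapped. The brightest hypodermal markers, sqt-3 and dpy-13 (PVD and OLL means of 11.6 and 12.1), weighed most in these sums and were not called. The sums therefore say little about the dimmer hypodermal markers. Pan-neuronal markers gave 7 higher and 0 lower of 15, with sums from 2135 to 3854 against 1306 to 1464. The counts were 2 higher and 0 lower of 10 for the pharynx, 1 and 2 of 12 for the intestine, 2 and 1 of 9 for body wall muscle and 0 and 1 of 8 for the germline. Called higher in the pharynx were pha-4 and peb-1 (3.23 and 3.49), and in the intestine cpr-1 (2.09). These differences were larger than that of any pathway gene. The lower intestinal genes were the yolk genes vit-2 and vit-6 (-3.09 and -3.66). Whole animal replicates 1, 2 and 3 read 7.06, 7.15 and 9.98 for vit-2 and 7.15, 6.67 and 9.88 for vit-6. As in col-19, replicate 3 was the highest. A stage difference between arrays was not tested. Summed signals were 803.6 to 1044 against 455.2 to 624.4 for the pharynx, 6251 to 8644 against 4878 to 8161 for the intestine, 9122 to 11280 against 7060 to 10950 for muscle and 652.7 to 835.5 against 784.7 to 819.8 for the germline. The pharyngeal sums did not overlap between groups, and those of intestine, muscle and germline did. No marker of these lists lay below the no-target level on all 3 PVD and OLL arrays. The part of other tissues in the pathway genes' differences was not tested.

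**Figure D4:**
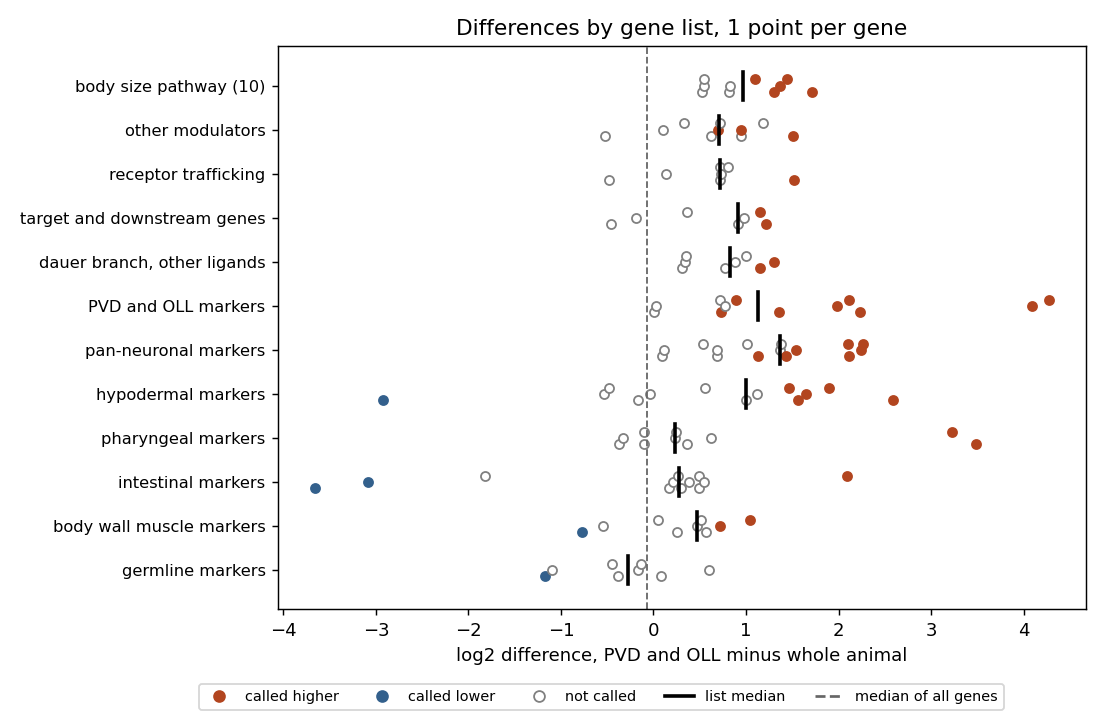
Log2 differences, PVD and OLL minus whole animal, of the genes in each list, 1 point per gene from its brighter probe set, with a bar at the list median and a dashed line at the median of all genes (-0.07). Filled points passed the test. The median is 0.96 for the 10 pathway genes, 1.37 for pan-neuronal, 1.12 for PVD and OLL and 1.001 for hypodermal markers, 0.47 for muscle markers and between -0.27 and 0.28 for pharyngeal, intestinal and germline markers.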

How the data were processed

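The authors' deposited table of log2 values, 1 per probe set and array, was made with RMA, per the submitters' processing notes; no source used here gives the software version. That the base is 2 is read from the values, which ran from 1.21 to 13.9. No column was left out. The 77 control probe sets were not tested. Names came from the array's annotation, updated through a RefSeq table of WBcel235; of 22548 probe sets 20766 had 1 gene name, 887 several and 895 none. Probe sets with the suffix _s_at or _x_at may also bind transcripts of other genes.

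Differences were tested with limma 3.58.1 (lmFit, eBayes) in R 4.3.3, two-sided, and p-values were adjusted by Benjamini-Hochberg across the 22548 probe sets, with a threshold of 0.05. The code was tested on simulated data. A gene with several probe sets was read from the one with the highest mean. The no-target level is the 95th percentile of 32 control probe sets. A fold against a group wholly under that level is a lower bound ("at least"). It is taken from the group means and leaves out the spread between arrays. The number of arrays limits the precision.

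All members are named. Of the other lists, called genes (up to 3 in each direction) and daf-7, tig-2, unc-129, drag-1, crm-1 and unc-40 are named by rule, with other genes chosen after their values were seen. Members and lists were chosen with earlier results of these data known.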

Additional observations from a re-analysis of the deposited data

How the results depend on the processing

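Of 290 recomputed differences of the 17 member probe sets, 238 kept direction and side of the threshold, 29 lost the call, 15 gained it and 8 changed sign. All 8 were the dim lon-2 probe set: 0.18 when quantile normalization was repeated, 0.21 by cyclic loess, 0.0836 with array weights, 0.0389 without replicate 3 of both groups, 1.22 when arrays were centred on the spike controls bioB and bioC (added after seeing the data), and between -0.15 and 0.12 with 1 array left out. When names ending in _s_at or _x_at were dropped, genes called higher numbered 3 of the 7 measured and probe sets 4 of 9, against 7.49% of all probe sets. With centring on the spike controls, genes and probe sets called higher numbered 10 and 17, against 56.6%. With 1 array left out they ranged from 1 to 5 and from 2 to 6. With values raised to the no-target level, 1 member probe set was called lower, the dim lon-2 one (-0.69), where that level is lower on the PVD and OLL arrays. For the other changes the cause was not tested. Among the other named genes, sign changed for rnt-1 (-0.16, values raised to the level), tig-2 (-0.0149 after quantile normalization, -0.0313 after cyclic loess, and between -0.0829 and 0.60 with 1 array left out), drag-1 (0.72, spike controls) and unc-40 (-0.0392 and -0.0479 after quantile normalization and cyclic loess).

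Over all probe sets, replicate numbers did not pair the samples: deviations of same-numbered arrays correlated at -0.05, -0.07 and -0.10. Single genes differed in this. With the number as a block in limma, the SE of dbl-1 on its brighter probe set fell from 0.50 to 0.22. The gene still did not pass (adjusted p = 0.0811). For sma-6 on its brighter probe set the SE rose from 0.52 to 0.60. With the number as a replicate block, 4 member genes and 5 probe sets were called higher, 0 lower, and 1224 probe sets were higher and 405 lower over the array, against 2099 and 964. That split was 1476 and 1952 with arrays centred on medians, 1192 and 1007 after quantile normalization and 1195 and 1079 after cyclic loess, where 4 member genes were called each time. It was 4035 and 2767 with array weights, 3184 and 7778 with values raised to the no-target level, 577 and 208 without PVD and OLL replicate 2 and 12752 and 66 with the spike controls. Signals near the no-target level limit what the dim probe sets of dbl-1, sma-6 and lon-2 can show.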
